A study of Mus musculus with 12 samples.

Results

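The integrins and homing adhesion molecules examined here were *Itgae*, *Itga4*, *Itgal*, *Itgav*, *Itgb1*, *Itgb2*, *Itgb7*, *Itgb8*, and *Selplg*, taken by gene symbol from the deposited expression table, which makes 9 of 32051 genes. Their transcripts were measured by RNA-seq in Th9 cells, the IL-9–producing helper T cells, made in culture from mouse spleen. All 4 groups came from splenic naive CD4+ cells (strain C57BL/6J), were stimulated through CD3 and CD28, were polarized with IL-4 (10 ng/mL) and TGF-β (1 ng/mL) while IL-12 and IFN-γ were blocked by antibodies, and were harvested on day 4. The DMSO group received vehicle, the EpA group received the cyclolipopeptide EpA (10 μM), the fatostatin group received fatostatin (5 μM), an inhibitor of the sterol-regulating SREBP transcription factors, and the fourth group received both compounds. Each group had 3 libraries, and the labels do not say whether these came from separate mice or cultures, so that the p-values measure the spread between libraries, which may be technical. Homing itself was not measured, and transcript levels do not give the amount of surface protein or its activated shape.

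Integrins are cell-surface adhesion receptors made of an α and a β chain, and the pairing sets the ligand. On T cells, αE pairs with β7 to bind E-cadherin on epithelium, α4 pairs with β7 to bind the mucosal addressin MAdCAM-1 or with β1 to bind VCAM-1, and αL pairs with β2 to form LFA-1, which binds ICAM-1. αV chains, above all with β8, activate latent TGF-β, and *Selplg* encodes PSGL-1, the ligand through which T cells roll on P-selectin; TGF-β itself is known to raise αE in T cells.

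Reads assigned to genes numbered 36607303 to 44375792 per library. The 6 CD4 T cell markers were present in every library, with a summed level of 574.3 to 584.8 with DMSO, 503.0 to 508.1 with EpA, 557.5 to 573.7 with fatostatin, and 481.4 to 485.5 with both, in FPKM (fragments per kilobase of exon, scaled to library size, hence a level per length). *Il9* was at 51.0 to 57.7 FPKM with DMSO, 619.9 to 652.0 with EpA, 60.7 to 70.8 with fatostatin, and 802.1 to 854.9 with both. The other Th9 markers did not move as one with EpA against DMSO. *Batf* rose (log2 change 0.34, limma adjusted p 5.20e-06), whereas *Irf4* and *Gata3* fell (−0.12 and −0.12, adjusted p 0.00185 and 0.0440). Of other cell types, the 3 natural killer cell markers stayed below 0.1 FPKM in every library, the 4 B cell markers summed to 5.19 to 8.62 FPKM, most of it *Cd79b* (4.66 to 7.43), and the 6 macrophage and monocyte markers to 1.27 to 2.90, most of it *Cd68* (1.06 to 2.33). By group, the B cell sum was 5.97 to 7.88 FPKM with DMSO, 5.19 to 6.21 with EpA, 7.51 to 8.62 with fatostatin, and 6.23 to 6.86 with both. The macrophage and monocyte sum was 1.28 to 1.40, 1.27 to 1.79, 1.57 to 2.39, and 1.87 to 2.90 FPKM in the same order. Some of these low transcripts moved with treatment, with *Cd79a* lower with EpA (log2 change −0.60, adjusted p 0.0127) and higher with fatostatin on top of EpA (0.72, adjusted p 0.00828), *Cd79b* lower with EpA on top of fatostatin (−0.33, adjusted p 0.0430), and *Lyz2*, at up to 0.250 FPKM in a library, higher with EpA and with fatostatin against DMSO (1.07 and 1.15, adjusted p 0.00934 and 0.0113). The 4 mast cell and basophil markers summed to 0.570 to 0.965 FPKM with DMSO, 0.995 to 1.60 with EpA, 0.827 to 1.12 with fatostatin, and 0.671 to 1.10 with both, and *Mcpt8* rose with EpA (log2 change 0.90, adjusted p 0.0492). The part of all these transcripts in the members' changes was not tested. In such bulk samples, fewer cells of a type and less RNA per cell cannot be told apart.

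The transcript of the β2 chain had the highest level per length among the members. *Itgb2* averaged 115.9 FPKM over the 12 libraries, followed by *Itgal* at 74.4, *Itgb7* at 66.8, *Selplg* at 57.2, *Itgb1* at 35.7, *Itgae* at 11.6, *Itgav* at 9.13, *Itga4* at 3.25, and *Itgb8* at 0.0176. Thus, per length, the transcripts of both LFA-1 chains and β7 were abundant, whereas that of α4 was low and that of β8 near 0. The ranking depends on the exon length, which was 13978 bases for *Itga4* and 4581 for *Itgae*. In reads per library, *Itga4* had 1042 to 3115 and *Itgae* 1039 to 3979. *Itgb8* rested on 1 to 16 reads per library and fell below the minimum of 0.1 FPKM set for testing, and the other 8 members passed it.

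**Figure D1:**
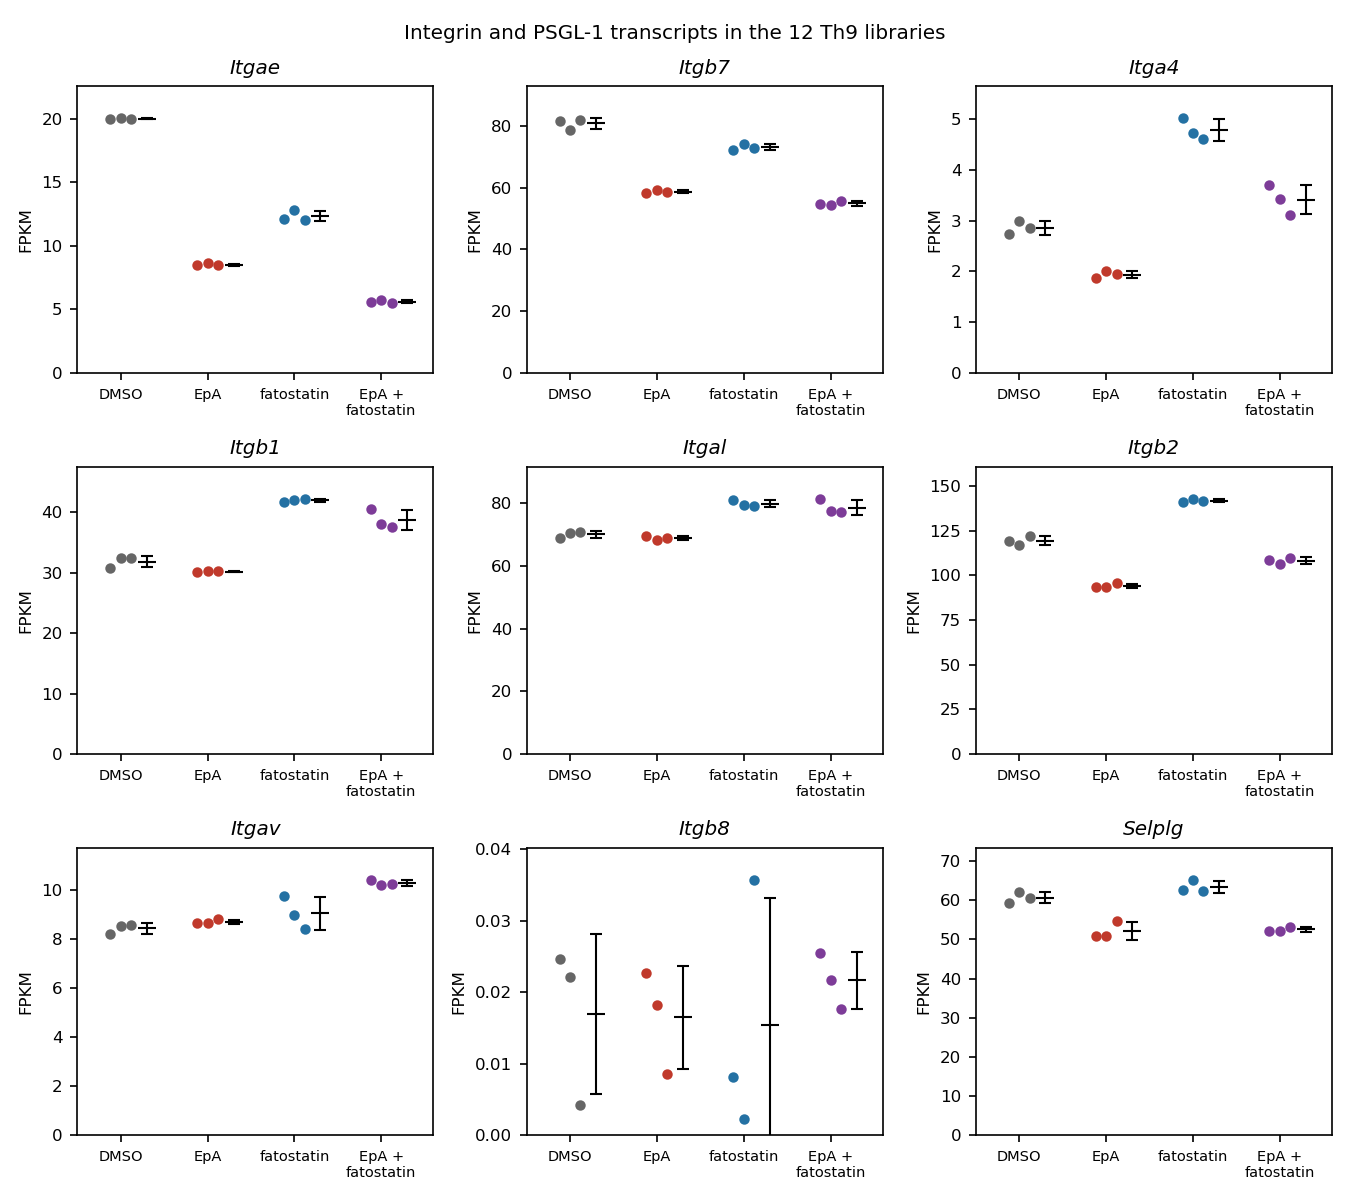
Level of each of the 9 members (FPKM, axes from 0, a separate scale per gene) in the 4 groups. Points are the 3 libraries of a group, and the bar beside them is the mean ± SD, which for Itgb8 with fatostatin reaches below the axis. Itgae falls from 20.01 with DMSO to 5.61 with both compounds, and Itga4 is lowest with EpA and highest with fatostatin.

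The first question was what EpA did to adhesion transcripts. With EpA, 5 of the 8 tested members fell and 0 rose (limma on log2 values, Benjamini-Hochberg adjusted p below 0.05 over 13733 genes). The 5 were *Itgae*, *Itga4*, *Itgb7*, *Itgb2*, and *Selplg*, and only *Itgae* changed by 1.5-fold or more. At an unadjusted p below 0.05, 6 members were lower and 0 higher. No share over all genes was taken at the unadjusted threshold, here or below. The voom method on recovered reads also gave 5 members lower and 0 higher, against 1961 lower and 2121 higher of 13728 genes. Of all genes tested with limma, 13.1% fell, 14.3% rose, and 3.38% passed both thresholds. The median log2 change was −0.28 over the 8 members and 0.0023 over all tested genes. Of the 6 CD4 T cell markers, 5 also fell with EpA, with log2 changes of −0.53 for *Cd28*, −0.33 for *Cd3e*, −0.27 for *Cd3g*, −0.24 for *Cd3d*, and −0.20 for *Lck*, and *Cd4* rose by 0.15 (adjusted p from 1.35e-07 to 7.70e-05). Their part in the members' changes was not tested.

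When EpA was added on top of fatostatin, 6 of the 8 members fell and 1 rose, against 13.3% lower and 16.2% higher among all genes. *Itgae* again was the member that passed both the test and 1.5-fold, as did 3.75% of genes. The median log2 change was −0.33 over the members and 0.0116 over all genes. *Itgb1* joined the 5 genes above on the lower side, and *Itgav* was the one that rose. The same 5 CD4 T cell markers fell here as well (log2 changes from −0.58 for *Cd28* to −0.21 for *Lck*), and *Cd4* rose by 0.10.

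Fatostatin alone gave a mixed picture. Compared with DMSO, 4 of the 8 members rose (*Itga4*, *Itgb1*, *Itgb2*, *Itgal*) and 2 fell (*Itgae*, *Itgb7*), where 7.69% of all genes rose and 6.31% fell. *Itgae* and *Itga4* passed both the test and 1.5-fold, as did 1.86% of genes. The median log2 change was 0.14 over the members and 0.00535 over all genes. Of the CD4 T cell markers, *Cd28* and *Lck* fell (log2 changes −0.31 and −0.16), and *Cd3g* and *Cd4* rose (0.11 and 0.11).

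Fatostatin added on top of EpA raised 5 members, namely the same 4 and *Itgav*, and lowered *Itgae* and *Itgb7*. Among all genes, 9.22% rose, 6.79% fell, and 1.99% passed both thresholds, as did 2 members. The median log2 change was 0.20 over the members and 0.0149 over all genes. *Cd28* and *Lck* fell here too (−0.36 and −0.17), and *Cd4* rose by 0.06. The same compound with and without the other was compared in different libraries. Each EpA comparison shares a group of libraries with each fatostatin comparison, however. All of them also share the fitted estimate of the spread, so the counts are not fully independent.

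**Figure D2:**
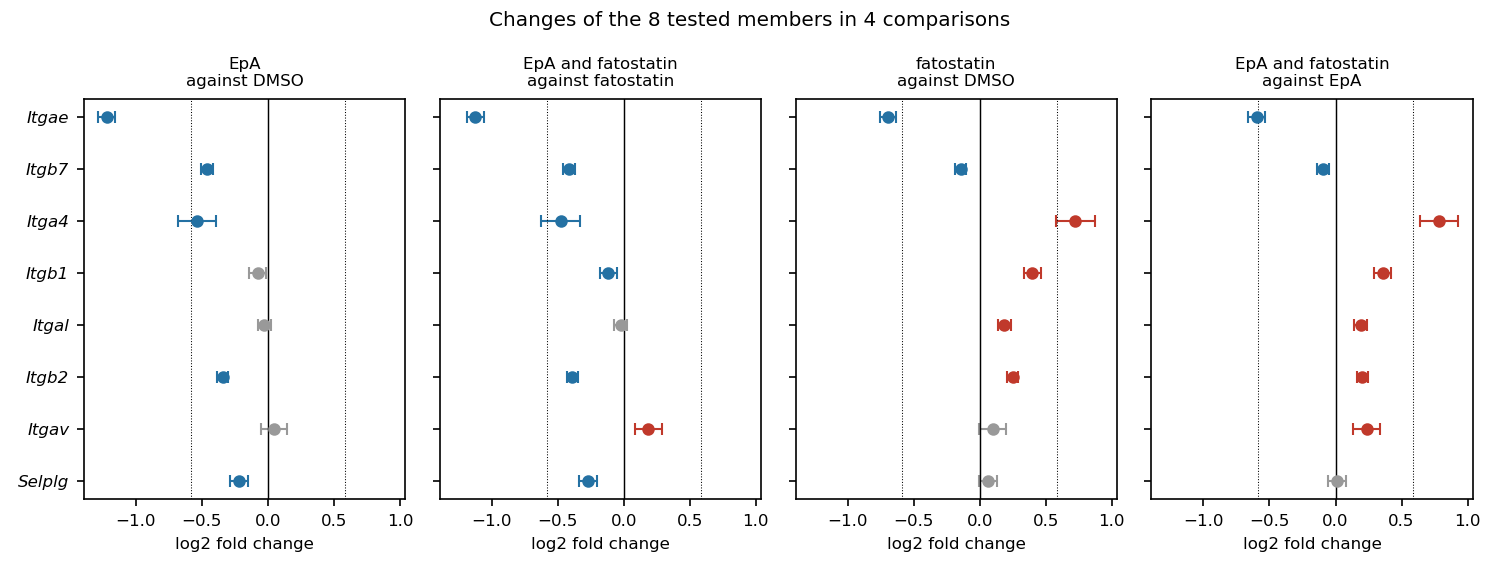
Log2 fold change (x axis) of the 8 tested members in 4 comparisons, with 95% intervals from limma. Red marks genes called higher, blue genes called lower, gray genes not called, and dotted lines mark 1.5-fold. Itgae lies farthest to the left in each panel, and Itga4 lies farthest to the right in both fatostatin panels and left of 0 in both EpA panels.

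*Itgae* (chromosome 11, 73090583 to 73147446 of GRCm38, plus strand), which encodes αE or CD103, the chain that tethers T cells to epithelial E-cadherin, was the member that changed most with EpA. Its level was 19.98, 19.99, and 20.07 FPKM in the DMSO libraries and 8.48, 8.50, and 8.62 in the EpA libraries. With fatostatin it was 12.1, 12.1, and 12.8 FPKM, and with both compounds 5.53, 5.55, and 5.73. No group overlapped another, and the order from high to low was DMSO, fatostatin, EpA, and both.

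The *Itgae* change was −1.22 with EpA (SE 0.029, adjusted p 4.36e-10), a size above that of 98.8% of tested genes, and the level fell by 57.1% on the fitted scale. Fatostatin alone lowered it by a log2 change of −0.69 (SE 0.029, adjusted p 4.36e-08). In the presence of fatostatin, EpA gave −1.12 (adjusted p 1.07e-09), and in the presence of EpA, fatostatin gave −0.60 (adjusted p 1.51e-07). Both compounds together left 28.0% of the DMSO level. These values rest on 1039 to 3979 reads per library, and *Haspin*, which lies within the *Itgae* locus on the other strand, shares 0 exon bases with it.

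Because αE is also carried by CD8 T cells, regulatory T cells, and some dendritic cells, transcripts of those cells were read beside it. *Cd8a* was at 1.60 to 1.93 FPKM with DMSO and 0.766 to 0.829 with EpA (log2 change −1.08, adjusted p 2.85e-05), whereas *Cd8b1*, the partner chain, was at 7.11 to 7.90 and 7.02 to 7.80 (log2 change −0.03, adjusted p 0.877). Of the 5 regulatory T cell markers, 3 fell with EpA, namely *Foxp3* from 1.87 to 1.20 FPKM (log2 change −0.60, adjusted p 0.00152), *Ikzf2* from 1.16 to 0.779 (log2 change −0.51, adjusted p 0.00376), and *Lrrc32* from 2.58 to 2.17 (log2 change −0.24, adjusted p 0.0438). The other 2, which activated T cells also express, rose, namely *Il2ra* from 693.1 to 876.4 FPKM (log2 change 0.34, adjusted p 6.73e-07) and *Ctla4* from 227.3 to 237.2 (log2 change 0.06, adjusted p 0.0270).

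With EpA on top of fatostatin, where *Itgae* fell by 1.12, *Cd8a*, *Foxp3*, and *Ikzf2* fell with log2 changes of −1.46, −0.68, and −0.54 (adjusted p 2.57e-06, 0.000582, and 0.00242), whereas *Il2ra* and *Ctla4* rose by 0.31 and 0.21 (adjusted p 1.11e-06 and 6.25e-06), and *Cd8b1* and *Lrrc32* were at −0.07 and −0.17 (adjusted p 0.606 and 0.148). With fatostatin on top of EpA, *Cd8a* fell (−0.62, adjusted p 0.00281), *Ctla4* rose (0.32, adjusted p 5.10e-07), and the other 5 markers did not pass the test, with log2 changes from −0.22 for *Foxp3* to 0.21 for *Ikzf2*. With fatostatin against DMSO, *Ctla4* and *Il2ra* rose (0.17 and 0.08, adjusted p 8.90e-05 and 0.0306), and the other 5 did not pass, with log2 changes from −0.23 for *Cd8a* to 0.24 for *Ikzf2*. The 5 dendritic cell markers summed to 0.639 to 0.694 FPKM with DMSO, 0.591 to 0.670 with EpA, 0.631 to 0.719 with fatostatin, and 0.650 to 0.737 with both, and *Siglech* was at 0 in every library. One of them, *Xcr1*, fell with EpA without overlap, from 0.195 to 0.0847 FPKM (log2 change −0.66, adjusted p 0.0338), and was at −0.41, −0.18, and −0.43 with fatostatin against DMSO, fatostatin on top of EpA, and EpA on top of fatostatin (adjusted p 0.228, 0.612, and 0.145). The part of these cells' transcripts in the *Itgae* result was not tested.

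*Itgb7* (chromosome 15, 102215995 to 102231944, minus strand) encodes β7, the chain shared by the epithelial receptor αEβ7 and the gut-homing receptor α4β7. It moved in the direction of *Itgae* but less. The level was 78.7, 81.7, and 82.0 FPKM with DMSO and 58.2, 58.4, and 59.2 with EpA. It was 72.3, 72.8, and 74.2 FPKM with fatostatin and 54.2, 54.8, and 55.6 with both. The 4 groups did not overlap and stood in the same order as for *Itgae*.

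EpA lowered *Itgb7* by a log2 change of −0.46 (SE 0.020, adjusted p 4.10e-08), which means that the level fell by 27.4%. Fatostatin lowered it by less, with −0.14 (SE 0.020, adjusted p 0.000527). The change was −0.41 for EpA in the presence of fatostatin (adjusted p 8.94e-08) and −0.10 for fatostatin in the presence of EpA (adjusted p 0.00706). None of these reached 1.5-fold.

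*Itga4* (chromosome 2, 79255426 to 79333123, plus strand) encodes α4, the chain that directs T cells to gut with β7 and to inflamed endothelium with β1. It moved in opposite directions with the 2 compounds. The level was 2.73, 2.85, and 2.99 FPKM with DMSO and 1.87, 1.94, and 2.0 with EpA. It was 4.61, 4.72, and 5.02 FPKM with fatostatin and 3.11, 3.43, and 3.70 with both. The 4 groups did not overlap, and with both compounds the level lay between those with DMSO and with fatostatin alone.

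The log2 change of *Itga4* was −0.54 with EpA (SE 0.066, adjusted p 0.000128) and 0.72 with fatostatin (SE 0.066, adjusted p 2.50e-05). On top of fatostatin, EpA gave −0.48 (adjusted p 0.000267), and on top of EpA, fatostatin gave 0.78 (adjusted p 1.24e-05). The fatostatin changes, 1.65-fold and 1.72-fold, exceeded those of 96.6% and 96.9% of genes. *Itga4* shares 1124 exon bases with *Cerkl* on the other strand, which had 32 to 89 reads per library against 1042 to 3115 for *Itga4*. Whether the counting used strand is not given in the sources used here, so reads in the shared stretch cannot be assigned to one of them with certainty.

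The bases upstream of *Itga4* and *Itgb7* are shown because these genes encode both chains of α4β7 and changed in opposite directions with fatostatin. The 250 bases before each start come from RefSeq (GRCm38.p6), in which 5 of the 9 members were matched (*Itga4*, *Itgav*, *Itgb1*, *Itgb7*, *Itgb8*). They span chr2:79255176-79255425 on the plus strand for *Itga4* and chr15:102231936-102232185 on the minus strand for *Itgb7*, each written from 5′ to 3′ along the gene. The RefSeq start of *Itgb7* lies a few bases inside the gene limits given above, which are from GENCODE, so the last bases of its stretch fall within those limits. Capitals mark matches, on either strand, to a RUNX motif (TGTGGT), a SMAD motif (CAGACA), an AP-1 motif (TGACTCA), or an E-box (CACGTG).
Itga4: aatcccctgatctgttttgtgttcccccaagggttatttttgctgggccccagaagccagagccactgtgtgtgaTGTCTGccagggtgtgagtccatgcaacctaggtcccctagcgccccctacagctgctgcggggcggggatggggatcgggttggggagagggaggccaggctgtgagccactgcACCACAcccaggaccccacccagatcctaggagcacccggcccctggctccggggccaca
Itgb7: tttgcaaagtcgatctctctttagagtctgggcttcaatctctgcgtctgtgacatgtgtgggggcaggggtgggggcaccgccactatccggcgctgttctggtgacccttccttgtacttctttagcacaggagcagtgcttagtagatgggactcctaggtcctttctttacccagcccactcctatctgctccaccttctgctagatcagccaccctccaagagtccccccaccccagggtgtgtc
The *Itga4* stretch held 1 RUNX match, 54 bases before the start, and 1 SMAD match, 169 bases before it, both on the opposite strand. The *Itgb7* stretch held none of the 4 motifs. Of 32851 promoter stretches of this length, 14.05% held the RUNX motif, 17.13% the SMAD motif, 4.463% the AP-1 motif, and 6.021% the E-box. A match is a description of the letters and no evidence of binding.

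*Itgb1* (chromosome 8, 128685654 to 128733200, plus strand) encodes β1, the chain of VLA-4 and of most receptors for extracellular matrix. It rose with fatostatin. The level was 30.7, 32.4, and 32.4 FPKM with DMSO and 41.7, 42.1, and 42.1 with fatostatin, a log2 change of 0.40 (SE 0.029, adjusted p 4.80e-06). With both compounds it was 37.5, 38.1, and 40.5 FPKM, above the 30.1, 30.2, and 30.2 with EpA (log2 change 0.36, adjusted p 9.28e-06). The fatostatin libraries all lay above those without it.

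EpA itself moved *Itgb1* little. The difference from DMSO was −0.08 (95% interval −0.14 to −0.01), with an adjusted p of 0.0768, although the 3 EpA libraries lay below the 3 DMSO libraries. Without the first DMSO library it passed the threshold (−0.10, adjusted p 0.0326). On top of fatostatin, EpA lowered it by a log2 change of −0.12 (SE 0.029, adjusted p 0.0114).

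Of the LFA-1 chains, β2 fell with EpA. *Itgb2* (chromosome 10, 77530252 to 77565708, plus strand) encodes β2, shared by all leukocyte integrins of the CD18 family. Its level was 117.0, 119.0, and 122.0 FPKM with DMSO and 93.4, 93.4, and 95.6 with EpA. It was 141.0, 141.6, and 142.8 FPKM with fatostatin and 106.4, 108.7, and 110.0 with both. The groups did not overlap, with EpA lowest and fatostatin highest.

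*Itgb2* fell by 0.34 on the log2 scale with EpA (SE 0.020, adjusted p 4.50e-07), so that the level fell by 21.1%, and rose by 0.25 with fatostatin (SE 0.020, adjusted p 8.53e-06). The change was −0.39 for EpA on top of fatostatin (adjusted p 1.35e-07) and 0.20 for fatostatin on top of EpA (adjusted p 3.70e-05). With both compounds *Itgb2* lay below the DMSO level.

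*Itgal* (chromosome 7, 127296260 to 127335138, plus strand) encodes αL or CD11a, the chain that pairs with β2 in LFA-1. It rose with fatostatin, whereas no EpA change was detected. The level was 68.9, 70.6, and 71.0 FPKM with DMSO and 68.3, 68.8, and 69.6 with EpA. It was 79.1, 79.5, and 81.2 FPKM with fatostatin and 77.2, 77.4, and 81.5 with both. The groups with fatostatin overlapped each other and lay above the groups without it, which also overlapped.

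For *Itgal*, the log2 change was 0.19 with fatostatin (SE 0.023, adjusted p 0.000228) and 0.19 with fatostatin on top of EpA (adjusted p 0.000191). EpA gave −0.03 (95% interval −0.08 to 0.02, adjusted p 0.456) and, on top of fatostatin, −0.02 (95% interval −0.07 to 0.03, adjusted p 0.517).

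*Itgav* (chromosome 2, 83724397 to 83806916, plus strand) encodes αV, the chain of the vitronectin receptor and of the TGF-β–activating integrins. It was 8.20, 8.55, and 8.59 FPKM with DMSO and 8.68, 8.68, and 8.82 with EpA. It was 8.41, 9.01, and 9.77 FPKM with fatostatin and 10.2, 10.3, and 10.4 with both. The group with both compounds stood above the other 3, and the fatostatin libraries overlapped those with DMSO and with EpA.

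Alone, neither compound gave a call for *Itgav*. The log2 change was 0.05 with EpA (95% interval −0.05 to 0.15, adjusted p 0.506) and 0.10 with fatostatin (95% interval −0.00267 to 0.20, adjusted p 0.200). Fatostatin on top of EpA gave 0.24 (SE 0.046, adjusted p 0.00466), and EpA on top of fatostatin gave 0.19 (SE 0.046, adjusted p 0.0103). The latter missed the threshold in a fit of those 6 libraries alone (adjusted p 0.0509), and fatostatin against DMSO passed it without the third fatostatin library (0.15, adjusted p 0.0347). *Itgav* shares 634 exon bases with *Gm13684* on the other strand.

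*Itgb8* (chromosome 12, 119158022 to 119238802, minus strand) encodes β8, the αV partner that releases active TGF-β. It had 2 to 10 reads per library with DMSO, 4 to 10 with EpA, 1 to 16 with fatostatin, and 8 to 12 with both. The groups overlapped, and a difference was not detectable at this depth.

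*Selplg* (chromosome 5, 113818536 to 113832644, minus strand), the gene for PSGL-1, fell with EpA. The level was 59.3, 60.6, and 62.2 FPKM with DMSO and 50.8, 50.9, and 54.7 with EpA. It was 62.3, 62.7, and 65.2 FPKM with fatostatin and 52.2, 52.2, and 53.3 with both. The groups with EpA overlapped each other and lay below those without it.

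The log2 change of *Selplg* was −0.22 for EpA against DMSO (SE 0.031, adjusted p 0.000300) and −0.27 for EpA on top of fatostatin (SE 0.031, adjusted p 5.77e-05). Fatostatin gave 0.06 (95% interval −0.00461 to 0.13, adjusted p 0.221) against DMSO and 0.01 (95% interval −0.06 to 0.08, adjusted p 0.847) on top of EpA.

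A further question was whether EpA acted differently once fatostatin was present. For the difference between the EpA effects with and without fatostatin, 0 of the 8 members passed (limma, adjusted p from 0.604 to 0.993), with 1 at an unadjusted p below 0.05 and 0 called by voom. Among all genes, 0.0364% passed in limma with a higher and 0.00728% with a lower effect, which is 5 genes and 1 gene. Voom called 14 of 13728 genes higher and 5 lower. The member with the smallest p was *Itgae*, whose log2 change with both compounds was −1.82, against a sum of −1.91 for the single effects (difference 0.10, 95% interval 0.01 to 0.19, unadjusted p 0.0394, adjusted p 0.604). *Itgav* had the largest difference, 0.14 (95% interval −0.00405 to 0.28, adjusted p 0.651).

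For *Itga4* the single effects of opposite sign summed to 0.19, and both compounds gave 0.25 (95% interval of the difference −0.15 to 0.26). *Itgb2* summed to −0.09 against −0.14 measured, and *Itgb7* to −0.61 against −0.56. The intervals allow departures from additivity, up to 0.26 on the log2 scale for *Itga4* and 0.28 for *Itgav*, and narrower ones for the other members.

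**Figure D3:**
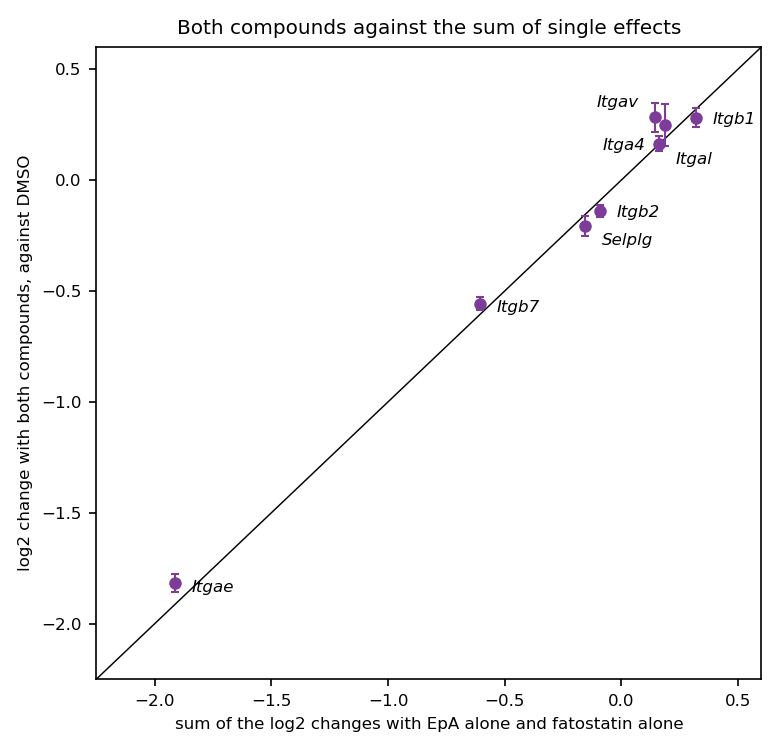
Log2 change with both compounds against DMSO (y axis) plotted on the sum of the log2 changes with each compound alone (x axis), for the 8 tested members. Bars are the SE of the distance from the line, on which both are equal. Itgae lies at −1.91 and −1.82, a difference of 0.10, and Itgav lies farthest from the line, by 0.14.

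Ratios of partner chains, taken within each library from levels per length, do not depend on library depth and are described here without a test. An exact permutation test of 3 against 3 libraries cannot go below a p of 0.1, and no model was fitted to the ratios. *Itgae* over *Itgb7* was 0.248 ± 0.0062 (SD, n = 3) with DMSO, 0.146 ± 0.000092 with EpA, 0.169 ± 0.0037 with fatostatin, and 0.102 ± 0.0031 with both. The αE transcript thus fell relative to its only known partner in each treated group, with no overlap between groups. *Itga4* over *Itgb7* was 0.0354 ± 0.0023 with DMSO and 0.0331 ± 0.00081 with EpA, which overlapped, and 0.0655 ± 0.0035 with fatostatin and 0.0622 ± 0.0058 with both, which overlapped each other and lay above.

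The transcripts of both β7 partners therefore shifted against each other. *Itgae* over *Itga4* was 7.02 ± 0.30 with DMSO, 4.41 ± 0.11 with EpA, 2.58 ± 0.15 with fatostatin, and 1.65 ± 0.14 with both (SD, n = 3). The β chains shifted too, with *Itgb7* over *Itgb1* at 2.54 ± 0.11, 1.94 ± 0.013, 1.74 ± 0.018, and 1.42 ± 0.064 in the same order. No group overlapped another in either ratio.

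Within LFA-1, *Itgal* over *Itgb2* was 0.588 ± 0.014 with DMSO and 0.564 ± 0.011 with fatostatin. It was 0.732 ± 0.013 with EpA and 0.727 ± 0.024 with both (SD, n = 3). The EpA-treated libraries, from 0.702 to 0.750, lay above all libraries without EpA, from 0.556 to 0.604. Of the summed levels of the 4 α chains among the members, *Itgae* made up 19.7% ± 0.28 with DMSO, 9.69% ± 0.14 with EpA, 11.6% ± 0.43 with fatostatin, and 5.72% ± 0.22 with both.

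**Figure D4:**
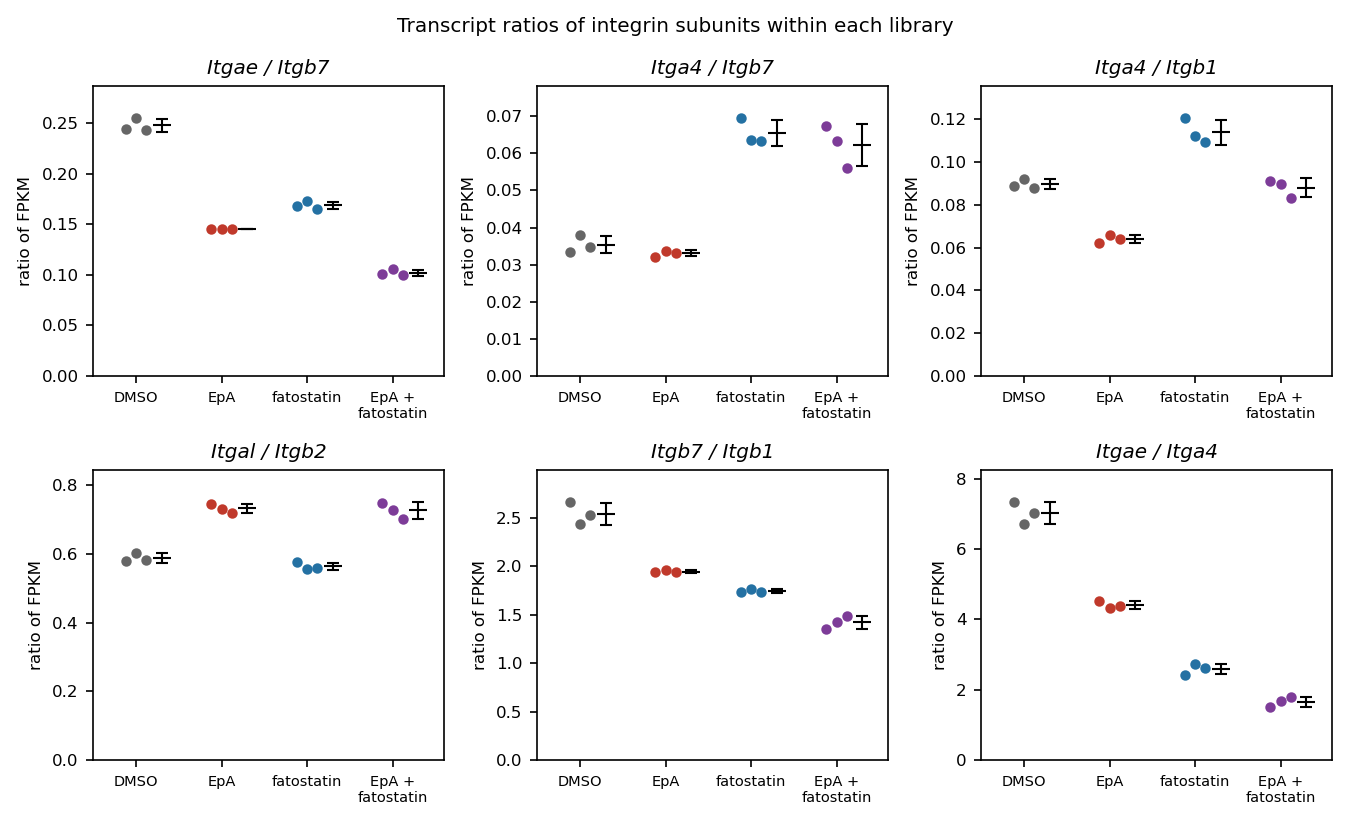
Ratios of integrin subunit transcripts (FPKM over FPKM, axes from 0) in each library of the 4 groups. Points are libraries, and bars are the mean ± SD. Itgae over Itga4 descends from 7.02 with DMSO to 1.65 with both compounds, and Itgal over Itgb2 is higher in both groups with EpA.

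Over the 12 libraries, the genes nearest in pattern to the 3 members whose group means spanned 1.5-fold or more were found by the root mean square difference of centered log2 levels, among 10290 genes. For *Itgae* they were *Myo6* (0.0876), *Id3* (0.149), and *Trgc1* (0.191). *Myo6*, a myosin that moves toward the minus end of actin filaments, averaged 9.35 FPKM with DMSO, 4.08 with EpA, 5.26 with fatostatin, and 2.35 with both. *Id3* is an inhibitor of E proteins, and *Trgc1* is a constant segment of the γ T cell receptor.

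For *Itga4* the nearest genes were *St8sia6* (0.114), a sialyltransferase, *P2rx7* (0.121), an ATP-gated channel, and *Col15a1* (0.131), a collagen chain. *P2rx7* averaged 5.92 FPKM with DMSO, 4.13 with EpA, 9.10 with fatostatin, and 5.92 with both. For *Itgb2* they were *Mbnl1* (0.0335), a splicing regulator, *Igtp* (0.0345), an interferon-induced GTPase, and *H2-DMa* (0.0360), which helps load MHC class II. The 12 libraries fall into 4 groups, so that likeness here mostly reads the group means.

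Around the members, 5 lists of adhesion genes were counted, to be read against the shares and medians of all genes given above. Of the 18 other integrin subunits, 11 passed the minimum. With EpA, *Itgb3* and *Itga2* fell and *Itgb5* rose (median log2 change of the list 0.18). With EpA on top of fatostatin, 3 rose and 2 fell, and with fatostatin against DMSO, 1 rose and 1 fell (median 0.02). With fatostatin on top of EpA, 1 rose and 0 fell (limma, with 2 and 0 at an unadjusted p below 0.05, and 2 and 0 called by voom). Over all genes, voom called 1573 of 13728 higher and 1065 lower in that comparison. *Itgb3*, the β chain that pairs with αV in the vitronectin receptor, was at 33.2 to 34.0 FPKM with DMSO and 18.6 to 18.8 with EpA (log2 change −0.84, adjusted p 4.06e-09), so that it exceeded *Itgb1* with DMSO and fell below it with EpA. *Itgb3* was at 35.1 to 37.3 FPKM with fatostatin and 21.2 to 21.5 with both (log2 change −0.75 between these, adjusted p 5.67e-09).

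Because *Itgb3* is abundant on platelets, their markers were read beside it. *Gp1bb* was listed at 0 in every library, and *Gp9* was below the minimum for testing. With EpA, *Pf4* rose from 1.10 to 2.29 FPKM (log2 change 1.02, adjusted p 0.00567) and *Ppbp* from 0.183 to 0.619 (log2 change 1.35, adjusted p 0.00140), and *Itga2b* was at 0.373 and 0.455 (log2 change 0.23, adjusted p 0.313). The summed level of the 5 platelet markers was 1.49 to 2.2 FPKM with DMSO, 2.91 to 3.84 with EpA, 2.05 to 2.70 with fatostatin, and 3.34 to 4.45 with both. Their part in the *Itgb3* result was not tested.

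Among 30 tested integrin activators and adaptors, 16 fell and 1 rose with EpA, with a median log2 change of −0.11. With EpA on top of fatostatin, 16 fell and 2 rose (median −0.13). *Rasgrp1*, which activates Ras downstream of the T cell receptor, fell the most, from 48.99 to 50.95 FPKM with DMSO to 27.7 to 28.9 with EpA (log2 change −0.80, adjusted p 9.03e-09). *Rap1b*, a GTPase that turns integrins on, was the one that rose, from 282.6 to 315.6 FPKM (log2 change 0.16, adjusted p 6.92e-05), and it was named after its value was seen. With fatostatin, 8 rose and 4 fell against DMSO (median 0.03), and 7 rose and 5 fell on top of EpA.

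*Arap2*, a GTPase-activating protein of focal adhesions, had the largest change with fatostatin among the called genes of that list, from 1.46 to 1.52 FPKM with DMSO to 2.29 to 2.71 with fatostatin (log2 change 0.71, adjusted p 0.000101). On top of EpA, fatostatin raised it by a log2 change of 0.71 as well (adjusted p 8.51e-05).

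Among 20 tested selectins, selectin ligands, and enzymes that build them, 2 rose and 5 fell with EpA (median −0.05), and 4 rose and 3 fell with fatostatin (median 0.04). Enzymes that build selectin ligands are needed for PSGL-1 to bind. *Fut7*, the fucosyltransferase that makes PSGL-1 able to bind selectins, was at 4.13 to 4.47 FPKM with fatostatin and 2.81 to 3.20 with both (log2 change −0.52, adjusted p 0.000418). Against DMSO, EpA also lowered *Fut7*, from 3.71 to 2.76 FPKM (log2 change −0.41, adjusted p 0.00218). *B3gnt3*, which extends sugar chains of selectin ligands, rose with EpA from 2.23 to 3.30 FPKM (log2 change 0.54, adjusted p 0.00120). With EpA on top of fatostatin, 2 genes of the list rose and 6 fell, and with fatostatin on top of EpA, 4 rose and 5 fell.

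Of 23 tested integrin ligands and partners, 8 rose and 4 fell with EpA (median 0.08), and 7 rose and 4 fell with EpA on top of fatostatin. *Plaur*, the urokinase receptor, rose from 0.897 to 1.90 FPKM with EpA (log2 change 1.01, adjusted p 0.00109) and from 0.768 to 2.07 on top of fatostatin (log2 change 1.34, adjusted p 0.000137). *Icam1*, the ligand of LFA-1, rose with fatostatin on top of EpA from 5.85 to 8.32 FPKM (log2 change 0.50, adjusted p 1.75e-05), and *Cd81*, a tetraspanin, with fatostatin alone from 22.6 to 30.5 (log2 change 0.43, adjusted p 2.29e-05). *Cdh1*, the gene of the αE ligand E-cadherin, named after its value was seen, fell with EpA from 0.502 to 0.166 FPKM (log2 change −1.18, adjusted p 0.000391). In this list 4 rose and 3 fell with fatostatin (median 0.16), and 5 rose and 3 fell on top of EpA.

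Of 19 other tested T cell adhesion receptors, 4 rose and 9 fell with EpA (median −0.13), and 3 rose and 9 fell on top of fatostatin. *Slamf6*, a self-binding receptor of T cells, fell with EpA from 1.76 to 0.887 FPKM (log2 change −0.91, adjusted p 1.47e-05), and *Alcam*, the ligand of CD6, with EpA on top of fatostatin from 2.03 to 1.07 (log2 change −0.87, adjusted p 0.000387). *Cd226*, an activating receptor for nectin-like ligands, rose with fatostatin from 9.50 to 12.7 FPKM (log2 change 0.42, adjusted p 3.34e-06), and *Cd96*, a receptor for the same ligand family, fell with fatostatin on top of EpA from 17.1 to 12.4 (log2 change −0.46, adjusted p 3.91e-05). With fatostatin, 4 rose and 3 fell against DMSO (median 0.05), and 3 rose and 4 fell on top of EpA.

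For the difference between the EpA effects with and without fatostatin, 0 of the 103 tested genes of the 5 lists passed (limma), with 11 at an unadjusted p below 0.05 and 0 called by voom.

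**Figure D5:**
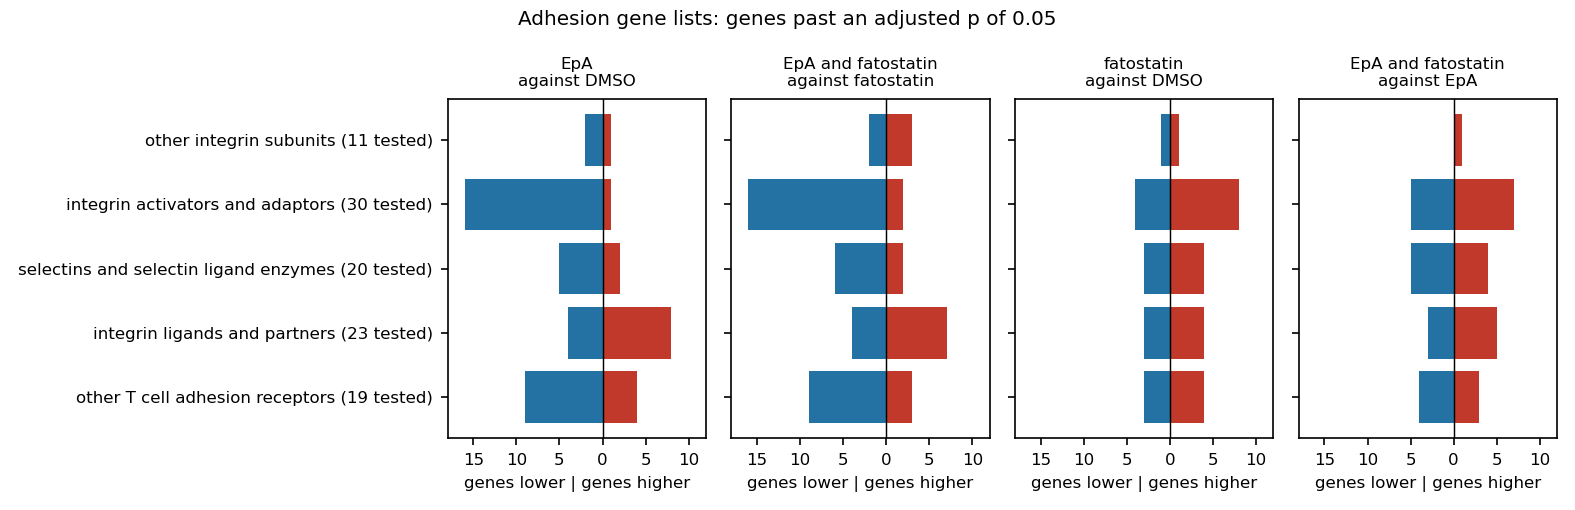
Number of genes of each adhesion list past an adjusted p of 0.05 (x axis, lower to the left in blue, higher to the right in red) in 4 comparisons. In both EpA panels, 16 of the 30 tested activators and adaptors are lower.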

How the data were processed

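RNA-seq of 12 libraries in 4 groups was used. The authors used Trim Galore for trimming, HISAT2 for alignment to GRCm38, and featureCounts for counting, and deposited FPKM, which divide by gene length and library size. The annotation release and the use of strand are not given in the sources used here. The table holds 32352 lines for 32051 genes, with 301 repeated lines of the same values, and 0 columns belong to no sample. Exon lengths and gene positions came from GENCODE for GRCm38 (99.9% of genes), with which 98.4% to 98.5% of values became whole reads within 0.05.

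The 13733 genes averaging 0.1 FPKM or more were transformed to log2(FPKM + 0.1), which understates changes of low genes, and fitted in R 4.3.3 with limma 3.58.1, with 1 mean per group, all 4 groups, and an intensity trend. Two-sided p-values were adjusted over all tested genes (Benjamini-Hochberg). Fold thresholds of 1.5 were counted beside an adjusted p of 0.05. The code was tested on simulated data. Ratios and figures were made in Python 3.11.15.

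Genes named beside the members were, per list and comparison, the gene with the largest change among those called, averaging 1 FPKM or more without overlap of the groups compared, and the 3 nearest in pattern to each member whose group means spanned 1.5-fold. Genes named outside this rule are a marker of a cell type, an overlapping gene, or *Itga2*, *Itgb5*, *Rap1b*, and *Cdh1*, which were named after their values were seen. A gene that the rule names is not reported here. The members and lists were chosen with earlier results of these data known. Alternatives changed the pseudocount, the minimum, the scaling, the groups fitted, the trend, the replicate numbers, the use of voom on recovered reads, and which library was left out.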

Additional observations from a re-analysis of the deposited data

How the results depend on the processing

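Of 680 alternative values for the 8 tested members, 667 kept their direction and their side of the threshold. The number of members called stayed at 5 to 6 for EpA against DMSO, 6 to 7 for fatostatin against DMSO, 7 for both compounds against EpA, 6 to 7 for both against fatostatin, and 0 for the difference between the EpA effects, over the alternatives that were run. The values that changed sign were near 0. *Selplg* with both compounds against EpA was −0.00672 with median-ratio scaling and ran from −0.00633 to 0.0461 with 1 library left out, and the *Itgal* difference between the EpA effects was −0.00806 with median-ratio scaling and ran from −0.0218 to 0.0171 with 1 library left out. The cause was not tested. A fit of the libraries of the compared groups alone gave *Itgav* an adjusted p of 0.0509 for both compounds against fatostatin. Over the scaling, voom, and block alternatives, no count of a list moved by more than 2 genes.

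Samples with the same replicate number did not deviate together (correlations of −0.047 to 0.074 over 18 pairs, 0 above 0.1), so no shared replicate effect was seen. Whether the numbers pair samples of the same mouse or culture cannot be decided from this, since the labels do not give it. With a replicate block, the calls were 5, 6, 7, 7, and 0 members in the order above, as without it. FPKM on a log scale carries no read-level error, and *Itgb8*, at 1 to 16 reads per library, is below what this depth can resolve.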
